A study of Mus musculus with 6 samples.

Results

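The genes described here are 9 transcription factors known for making and keeping macrophages: Spi1, Runx1, Cebpa, Cebpb, Irf8, Irf4, Maf, Mitf and Tfec. They were taken by symbol from the 51912 gene records of the deposited tables, and each of the 9 symbols matched 1 record. The samples are mouse bone marrow mononuclear cells (BMMNCs), the marrow fraction that holds leukocytes and their progenitors, with the genotype label WIDETYPE, read here as wild type, and kept for 10 days on hHVS (n = 3 libraries) or on PCL (n = 3 libraries). PCL usually stands for polycaprolactone, a degradable polyester used as a scaffold, while the name hHVS is not spelled out in the labels. Neither the age of the mice, nor their number, nor whether a library is 1 culture or a pool is stated, so p-values measure the spread between these libraries, which may be technical.

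Blood cell fate is set by a small set of such factors, which bind DNA together and keep one another's genes on. PU.1 (the product of Spi1) opens enhancers in myeloid cells, RUNX1 acts earlier and helps to switch Spi1 on, and C/EBP alpha and C/EBP beta act with PU.1 in granulocytes and macrophages. IRF8 and IRF4 bind DNA with PU.1, MAF is a basic leucine zipper factor of mature macrophages, and MITF and TFEC are related basic helix-loop-helix factors of the MiT family that work in osteoclasts and macrophages.

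The libraries held 72.1 to 83.6 M estimated count units, taken as about 4 units to a sequenced fragment. Macrophage transcripts were abundant on both scaffolds: the 8 macrophage markers (Csf1r, Cd68, Adgre1, Fcgr1, Mertk, Lyz2, Cd14 and Itgam) together held 19298 to 20593 CPM (count units scaled to the same library total) in hHVS libraries and 14910 to 17377 CPM in PCL libraries. Most of each sum was Lyz2, at 12529 to 13840 CPM in hHVS libraries and 8373 to 10359 CPM in PCL libraries. Of the 9 gene records tested for these markers, 6 were higher and 3 (Cd14, Csf1r and Fcgr1) lower on hHVS by mean level. Markers of other blood cells were low. In any hHVS or PCL library the 8 neutrophil markers summed to at most 18.03 CPM, the 7 B and plasma cell markers to at most 2.18 CPM, the 6 T and natural killer cell markers to at most 1.601 CPM and the 6 mast cell and basophil markers, of which Fcer1a, Tpsb2 and Mcpt4 were at 0, to at most 0.155 CPM. The 8 stromal markers summed to 9.13 to 50.6 CPM in hHVS libraries and 37.8 to 142 CPM in PCL libraries, with PCL replicate 1 highest. Of the 6 libraries, PCL replicate 3 (-53.6) and hHVS replicate 2 (-32.1) lay apart from the others (10.4 to 31.8) on the second principal component of log2 CPM, which held 23.3% of the variance.

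Promoter sequence is shown for 3 of the factors, Irf4 and Tfec because their levels differed most between the scaffolds and Irf8 as the relative of Irf4 that binds the same kind of site. Each run is the RefSeq sequence (GRCm38.p6) just upstream of the gene's start, read 5′ to 3′ on the gene's own strand. Capitals mark matches to the letters of known sites: AGGAAGT for PU.1, TTCNNNGAA for the interferon-gamma activated site, and TGTGGT for RUNX factors, which reads as ACCACA from the opposite strand.
Irf4, chr13:30748983-30749225, plus strand: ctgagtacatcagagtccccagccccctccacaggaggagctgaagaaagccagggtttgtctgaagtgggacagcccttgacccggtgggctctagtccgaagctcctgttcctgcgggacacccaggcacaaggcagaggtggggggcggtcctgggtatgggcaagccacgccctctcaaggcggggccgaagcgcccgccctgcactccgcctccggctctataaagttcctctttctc
Irf8, chr8:120736108-120736357, plus strand: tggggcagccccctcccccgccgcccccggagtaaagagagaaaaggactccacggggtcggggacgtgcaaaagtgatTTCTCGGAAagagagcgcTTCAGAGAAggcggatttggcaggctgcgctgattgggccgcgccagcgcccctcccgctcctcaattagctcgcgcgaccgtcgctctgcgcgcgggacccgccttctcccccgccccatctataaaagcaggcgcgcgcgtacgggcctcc
Tfec, chr6:16898442-16898691, minus strand: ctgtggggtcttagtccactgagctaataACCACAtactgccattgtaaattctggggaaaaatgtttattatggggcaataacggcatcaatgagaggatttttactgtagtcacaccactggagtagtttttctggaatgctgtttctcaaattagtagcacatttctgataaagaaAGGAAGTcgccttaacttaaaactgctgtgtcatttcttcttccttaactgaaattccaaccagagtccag
In mouse macrophages the Tfec promoter is known to be driven by PU.1, and its window held 1 match to AGGAAGT and 1 to ACCACA. The Irf8 window held 2 matches to TTCNNNGAA, a kind of site through which interferon-gamma is known to induce this gene, and the Irf4 window held none of the letters searched. On either strand, AGGAAGT occurred in 7.69% of 32851 RefSeq mouse promoters over the 250 bases upstream (243 printed for Irf4), TTCNNNGAA in 7.02% and TGTGGT in 14.05%, so a match describes the letters only. Paired IRF sites (a core of the interferon-stimulated response element, 2.98% of promoters), C/EBP sites (TTGCNNAA, 9.56%) and the E-box CACGTG of MiT factors (6.02%) were also searched. Among the 7 factors with entries in this set, Mitf had 1 C/EBP and 1 RUNX match in its most upstream window and Runx1 had 1 CACGTG match in its upstream window.

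All 9 factors had counts in every library and were expressed enough to be tested. On the scale of FPKM (fragments scaled to transcript length and library size), which allows genes of different length to be set side by side, the 9 means fell in the same rank order on both scaffolds. On hHVS the mean levels were 151 FPKM for Cebpa, 115 for Spi1, 89.5 for Cebpb, 58.9 for Maf, 24.98 for Irf8, 19.5 for Mitf, 8.03 for Runx1, 3.86 for Tfec and 0.122 for Irf4. No 2 neighbours in that order overlapped among the hHVS libraries. On PCL the means were 177 FPKM for Cebpa, 137 for Spi1, 97.9 for Cebpb, 53.9 for Maf, 26.1 for Irf8, 23.2 for Mitf, 9.88 for Runx1, 3.02 for Tfec and 0.344 for Irf4. There Cebpa overlapped with Spi1, although it was the higher of the pair in all 3 libraries, and Irf8 overlapped with Mitf and was the higher in 2 of 3.

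**Figure D1:**
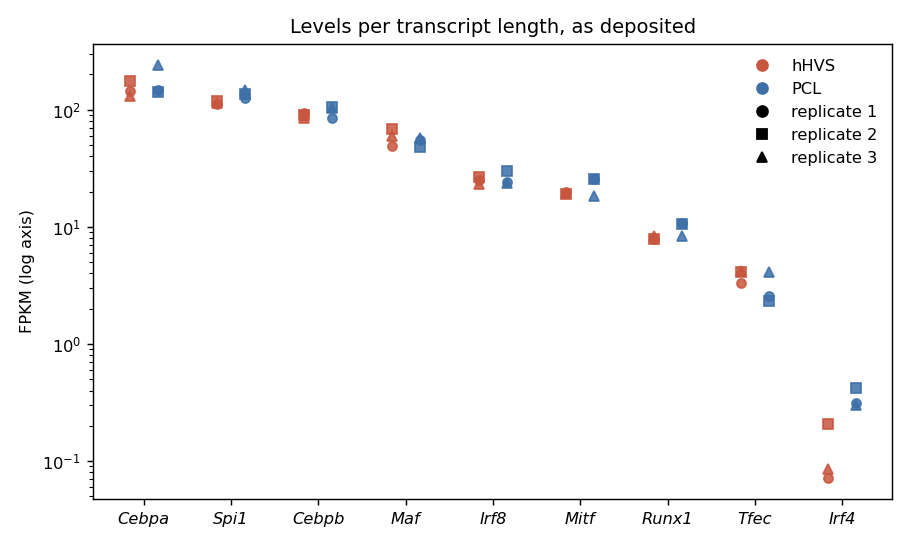
Level of each factor in FPKM on a log axis, 1 point per library, hHVS in red and PCL in blue, with the replicate given by the shape of the point. Cebpa and Spi1 lie above 100 FPKM in every library, and Irf4 lies below 0.5 FPKM.

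None of the 9 factors passed the comparison of hHVS with PCL, in which 0.862% of the 16364 genes tested did, 0.562% higher and 0.299% lower on hHVS (edgeR quasi-likelihood test, Benjamini-Hochberg adjusted p under 0.05). DESeq2, which called 3.58% of its genes, and limma-voom, which called 0.776%, also called 0 of the 9. At an unadjusted p under 0.05, 2 of the 9 passed in edgeR, Irf4 and Spi1, both lower on hHVS, against 13.1% of all genes (6.99% higher and 6.14% lower). Those 2 were also the only members whose libraries did not overlap between the scaffolds, both lower on hHVS. Of all genes 20.6% had no overlap, 10.7% higher and 9.89% lower on hHVS. Of the 9 log2 fold changes 6 were negative, and their median was -0.15, against -0.01 over all genes tested. In bulk RNA, fewer cells of a type and less RNA per cell cannot be told apart.

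**Figure D2:**
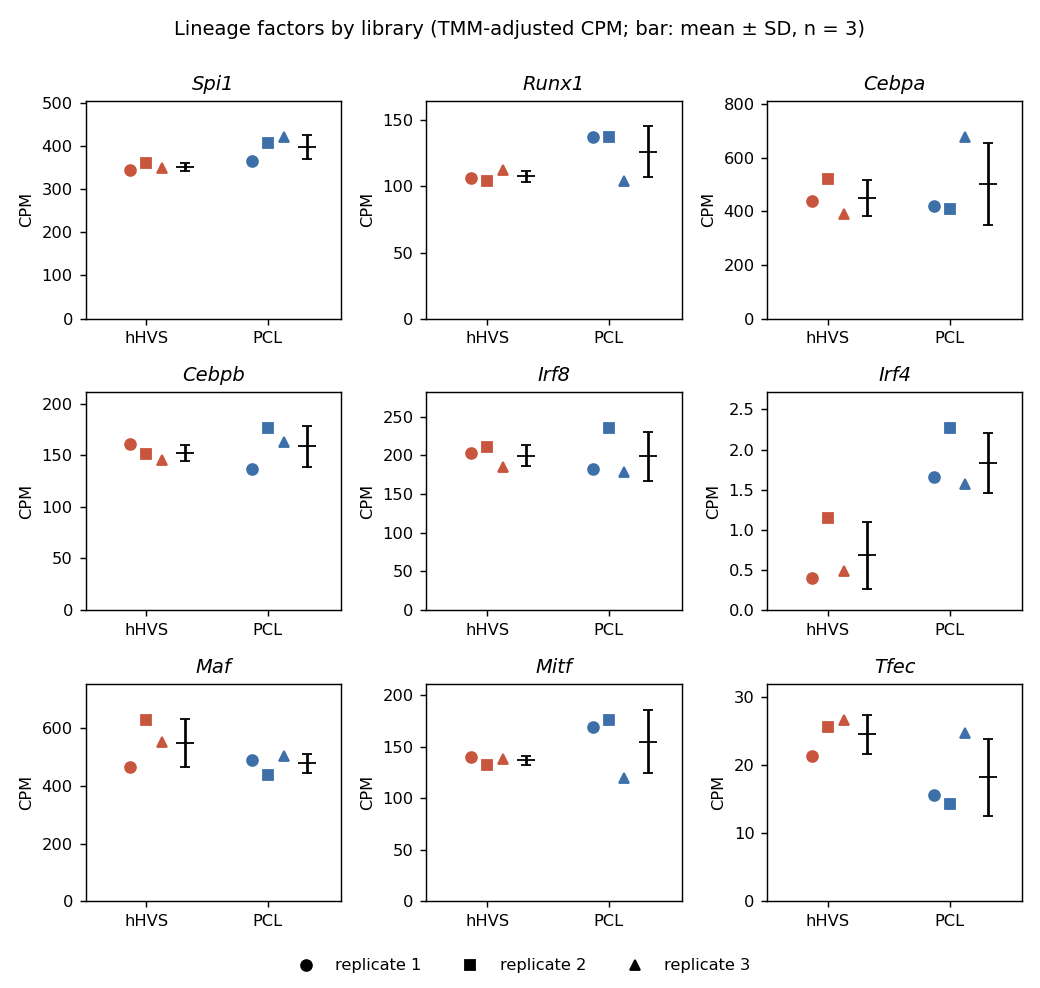
CPM adjusted with TMM factors for each factor in each library, hHVS left and PCL right in every panel, on axes that start at 0, with the mean and SD of 3 libraries as a black bar. The groups are apart for Spi1 and Irf4, and PCL replicate 3 (triangle) leaves the other PCL libraries for Runx1, Cebpa, Mitf and Tfec.

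Among the factors that act first in the lineage, Spi1 (chr2:91082390-91115756, plus strand, GRCm38) had 344, 361 and 350 CPM in hHVS replicates 1, 2 and 3, against 365, 407 and 421 CPM in PCL replicates 1, 2 and 3. Every hHVS library was below every PCL library, by a margin that was narrow next to the level of the gene. The log2 fold change was -0.18 ± 0.07 (SE), with a 95% interval of -0.35 to -0.002 and an adjusted p of 0.372 (edgeR). The fitted ratio of hHVS to PCL was 0.885, and the interval holds no change as large as 1 log2 unit in either direction. Only PCL replicate 1 lay close to the hHVS range, and without it the log2 fold change was -0.24, while without PCL replicate 3 it was -0.13. The unadjusted p of 0.0476 (edgeR) lay close to 0.05. It was 0.0509 in edgeR with DESeq2's size factors, 0.0508 in limma-voom, 0.0716 in DESeq2 and 0.0896 in edgeR without PCL replicate 3.

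Runx1 (chr16:92601466-92826149, minus strand), needed for the first blood stem cells and later for normal lineage balance, had 106, 104 and 112 CPM in hHVS replicates 1 to 3 and 137, 137 and 104 CPM in PCL replicates 1 to 3. The groups overlapped because PCL replicate 3 was as low as the hHVS libraries. The log2 fold change was -0.23 ± 0.12 (95% interval -0.50 to 0.04, adjusted p = 0.447, edgeR). Cbfb, the subunit that RUNX1 needs to bind DNA well, was at 132 ± 3.81 CPM in hHVS libraries and 146 ± 7.43 CPM in PCL libraries (SD, n = 3, adjusted p = 0.431, edgeR).

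Neither C/EBP gene separated the scaffolds beyond the spread between libraries. Cebpa (chr7:35119293-35121928, plus strand), the factor that commits progenitors to the myeloid branch, had 440, 522 and 390 CPM on hHVS and 420, 408 and 677 CPM on PCL. PCL replicate 3 was above all other libraries, so the SD on PCL (152 CPM) was more than 2 times that on hHVS (66.3 CPM). The log2 fold change of -0.15 ± 0.21 had the widest interval after those of Irf4 and Tfec, -0.64 to 0.33 (adjusted p = 0.796, edgeR), and turned to 0.12 without PCL replicate 3. Cebpb (chr2:167688915-167690418, plus strand), which is induced by inflammatory signals and in maturing macrophages, had 161, 151 and 146 CPM on hHVS and 137, 176 and 163 CPM on PCL. The PCL values enclosed the hHVS values, and the log2 fold change was -0.06 ± 0.10 (95% interval -0.30 to 0.18, adjusted p = 0.846, edgeR). Exons of Tmem189, a gene on the opposite strand at 195 CPM over the 6 libraries, cover 20.7% of the exonic bases of Cebpb. No source used here says whether the reads of this stranded kit were counted by strand, so the Cebpb values are uncertain. Other genes on the opposite strand shared exonic bases with Runx1, Cebpa and Maf, none of them above 0.417 CPM. The CPM of these opposite-strand genes were scaled by library totals without TMM factors.

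Irf4 (chr13:30749226-30766976, plus strand) had the largest difference and the lowest level of the 9. IRF4 is known from B and plasma cells, T cells and a branch of dendritic cells, and in macrophages from the response to interleukin-4. It had 0.403, 1.15 and 0.483 CPM in hHVS replicates 1 to 3, against 1.66, 2.26 and 1.57 CPM in PCL replicates 1 to 3. These correspond to 29, 95 and 37 count units in hHVS libraries and 127, 164 and 122 units in PCL libraries, so the hHVS values rest on few fragments, although all lie above the 0.146 to 0.167 CPM that 3 fragments make in a library. The 2 groups did not overlap, and hHVS replicate 2 was closer to PCL than the other hHVS libraries were. The log2 fold change was -1.42 ± 0.44 (95% interval -2.44 to -0.41), 468th in size among the 16364 genes, with an unadjusted p of 0.0126 and an adjusted p of 0.225 (edgeR). DESeq2 gave an adjusted p of 0.0565. Without hHVS replicate 2 the log2 fold change was -2.04 (adjusted p = 0.102, edgeR), and every other omission of 1 library gave a value between -1.52 and -1.16.

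Markers of other cell types that use IRF4 were mostly low in these libraries, as was Irf4 itself. Among them, Ms4a1, Pax5 and Mzb1 of B and plasma cells, Cd3e, Cd3d and Cd2 of T cells and Ccr7, Flt3, Siglech and Xcr1 of dendritic cells were too low to be tested. Of these untested genes only Cd3e, Cd2 and Ccr7 did not overlap, all lower on hHVS and at 0.123 CPM or less on average on PCL. Of the tested B, plasma, T and natural killer cell markers, Cd79a, Cd79b and Klrb1c had positive and Jchain and Cd5 negative log2 fold changes. Cd79b (0.962 and 0.565 CPM on hHVS and PCL) and Cd5 (0.253 and 0.483 CPM) did not overlap, which held for 20.6% of all genes tested. The 8 dendritic cell markers summed to 78.3 to 87.6 CPM in hHVS libraries and 48.6 to 65.8 CPM in PCL libraries, nearly all of it Bst2, an interferon-induced gene that macrophages also express (81.9 ± 5.32 and 53.3 ± 8.82 CPM on hHVS and PCL). Of the 4 tested, Bst2 and Clec9a had positive and Cd209a and Zbtb46 negative log2 fold changes (median -0.04), with Cd209a and Zbtb46 below 0.3 CPM on average on both scaffolds. The part of these cells in the Irf4 difference was not tested.

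Irf8 (chr8:120736358-120756694, plus strand), which directs progenitors to monocytes and dendritic cells at the expense of neutrophils, was the member with the smallest difference. It had 202, 211 and 185 CPM on hHVS and 182, 235 and 179 CPM on PCL, so each hHVS library lay within the PCL range. The log2 fold change was 0.01 ± 0.12 (95% interval -0.27 to 0.28, adjusted p = 0.985, edgeR), and its sign depended on the scaling, since library totals without TMM factors gave -0.07. In the ratio of Irf8 to Irf4 within a library, the scaling cancels. By FPKM the ratio was 350, 128 and 269 on hHVS and 76.6, 72.3 and 79.8 on PCL, higher in every hHVS library than in any PCL library. Its log2 mean was 7.84 ± 0.75 on hHVS and 6.25 ± 0.07 on PCL (SD, n = 3), a difference of 1.59 (exact two-sided permutation p = 0.1, the smallest that 3 against 3 libraries allow, and 0.4 when adjusted over the 4 ratios computed).

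Maf (chr8:115682942-115707794, minus strand), a factor of mature and resident macrophages, had 464, 629 and 553 CPM in hHVS replicates 1 to 3 and 491, 440 and 503 CPM in PCL replicates 1 to 3. The highest values were in hHVS replicates 2 and 3, but hHVS replicate 1 lay within the PCL range. The log2 fold change was 0.20 ± 0.12 (95% interval -0.08 to 0.47, adjusted p = 0.524, edgeR). Without hHVS replicate 2 it was 0.09, and without hHVS replicate 1 it was 0.30.

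The MiT factors had log2 fold changes of opposite sign. Mitf (chr6:97807052-98021349, plus strand), which is needed for osteoclasts as well as for pigment cells and mast cells, had 141, 132 and 138 CPM on hHVS and 169, 176 and 120 CPM on PCL. Its log2 fold change was -0.18 ± 0.14 (95% interval -0.51 to 0.15, adjusted p = 0.64, edgeR). Tfec (chr6:16833373-16898441, minus strand), whose main promoter is used in macrophages, had 21.3, 25.6 and 26.6 CPM on hHVS and 15.6, 14.3 and 24.7 CPM on PCL. Its log2 fold change was 0.43 ± 0.21 (95% interval -0.06 to 0.92, adjusted p = 0.439, edgeR), the largest positive value among the 9. In both genes PCL replicate 3 lay away from PCL replicates 1 and 2, among the hHVS libraries for Tfec and below them for Mitf. The ratio of Tfec to Mitf by FPKM was 0.167, 0.214 and 0.214 on hHVS and 0.101, 0.0896 and 0.228 on PCL, a log2 difference of 0.63 (exact two-sided permutation p = 0.4).

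**Figure D3:**
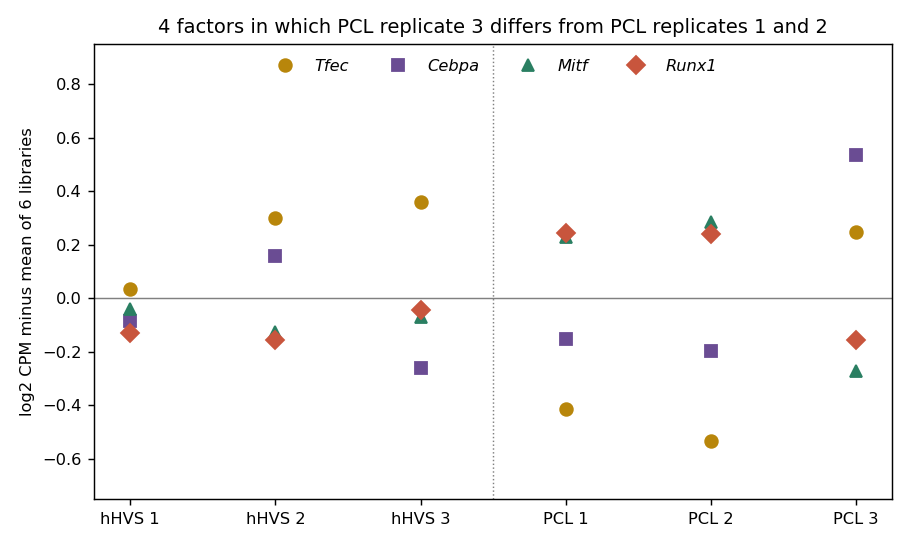
Log2 CPM of Tfec, Cebpa, Mitf and Runx1 in each library after subtracting the gene's mean over the 6 libraries, with hHVS left of the dotted line. Mitf and Runx1 are high and Tfec is low in PCL replicates 1 and 2 alone, and in PCL replicate 3 Runx1 and Tfec sit near hHVS values, Mitf below them, while Cebpa is at its highest.

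How far 3 of the factors were from the threshold depended on which PCL library was left out. Without PCL replicate 3, the adjusted p was 0.0737 for each of Runx1, Mitf and Tfec (edgeR, 3 hHVS against 2 PCL libraries), with log2 fold changes of -0.35 for Runx1, -0.34 for Mitf and 0.71 for Tfec. Without PCL replicate 2 the values moved the other way, to -0.17 for Runx1, -0.08 for Mitf and 0.28 for Tfec (adjusted p = 0.671, 0.88 and 0.662, edgeR). Without PCL replicate 1 they were -0.17, -0.11 and 0.33 (adjusted p = 0.587, 0.792 and 0.572, edgeR). With PCL replicate 3 and hHVS replicate 2 both left out, an omission chosen after seeing the data, the adjusted p was 0.176, 0.178 and 0.17 for Runx1, Mitf and Tfec. PCL replicate 3 also had the highest summed level of the 6 progenitor markers (33.4 CPM). That sum was 13.2 to 16.2 CPM in hHVS libraries and 21.3 to 22.9 CPM in the other PCL libraries. In PCL replicate 3 most of it was Sox4 (17.3 CPM) and Cd34 (12.8 CPM), and Flt3 and Hlf were at 0. Kit (0.348 CPM) and Meis1 (2.96 CPM) were higher in PCL replicate 2 (0.662 and 3.28 CPM). The summed stromal markers of PCL replicate 3 (37.8 CPM) were close to those of PCL replicate 2 (38.4 CPM). Among them Col3a1 (9.56 against 1.95 CPM) and Cxcl12 (1.87 against 0.593 CPM) were higher in PCL replicate 3, and the others were lower. The part of progenitors or stromal cells in the differences of Runx1, Mitf and Tfec was not tested.

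**Figure D4:**
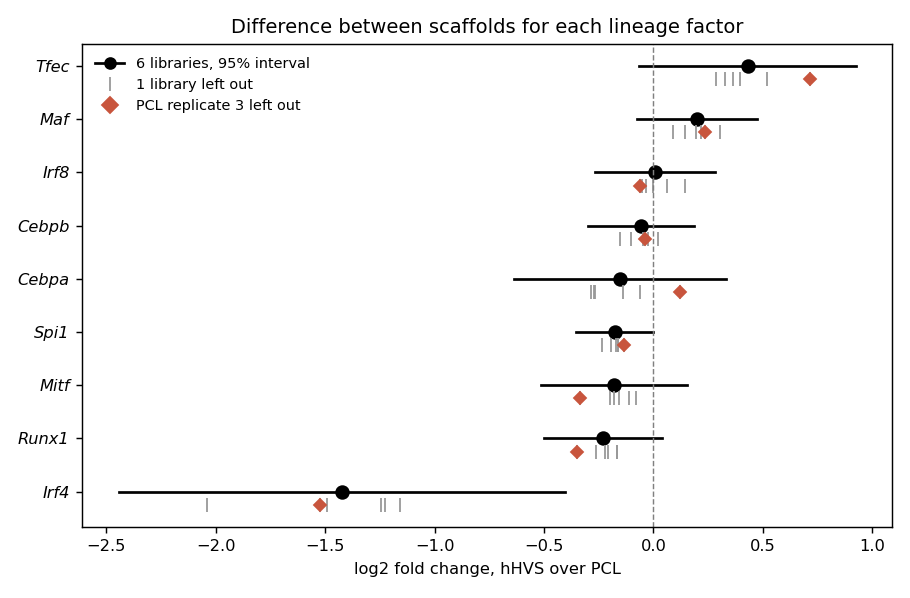
Log2 fold change of hHVS over PCL for each factor with its 95% interval from edgeR (black), the values with 1 library left out (grey ticks) and the value without PCL replicate 3 (red diamond). Intervals of 7 factors include 0, those of Spi1 and Irf4 do not, and no factor passed after adjustment over 16364 genes.

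The balance of C/EBP alpha to PU.1, known to weigh granulocyte against macrophage fate, was also taken within each library. The ratio of Cebpa to Spi1 by FPKM was 1.31, 1.48 and 1.14 on hHVS and 1.18, 1.02 and 1.65 on PCL (log2 difference 0.05, exact two-sided permutation p = 1). The ratio of Cebpa to Cebpb was 1.56, 1.97 and 1.53 on hHVS and 1.75, 1.32 and 2.36 on PCL (log2 difference -0.07, exact two-sided permutation p = 0.8). In both ratios the PCL libraries enclosed the hHVS libraries, and the sign turned when single libraries were left out.

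For Irf4, the genes tested at 10 CPM or more whose log2 CPM ran closest to it over the 6 libraries, after centring, included Lsp1 and Nes among 8399 candidates. Lsp1, a leukocyte actin-binding protein gene, differed from it by a root mean square of 0.32 log2 units, and Nes, an intermediate filament gene, by 0.38. Both fell on hHVS (adjusted p = 0.0111 and 0.0497, edgeR), at 22.6 ± 4.75 CPM in hHVS libraries and 60.0 ± 3.80 CPM in PCL libraries for Lsp1, and 29.3 ± 6.77 CPM in hHVS libraries and 67.2 ± 11.96 CPM in PCL libraries for Nes. A gene that likeness to Irf4 selects must be lower on hHVS, and the calls of Lsp1 and Nes were lost when single libraries were left out, in 3 and 5 of 6 cases.

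Of 20 relatives and binding partners of the factors, 19 were tested and 0 rose or fell in edgeR. An unadjusted p under 0.05 was reached by 4, against 13.1% of all genes tested. DESeq2, which called 3.58% of its genes, called 1 of these relatives and partners, and limma-voom called 0. Their median log2 fold change was -0.07. The gene that DESeq2 called was Spic, named here with Tfeb and Irf5 after their values were seen. Spic, the PU.1 relative of red pulp macrophages in the spleen, had 9.04, 9.79 and 12.97 CPM on hHVS and 4.28, 2.69 and 6.07 CPM in PCL libraries (fitted log2 fold change 1.29 ± 0.30, adjusted p = 0.123 in edgeR and 0.000285 in DESeq2). Its hHVS and PCL libraries did not overlap. Tfeb, the MiT relative that controls lysosome genes, was at 68.5 ± 1.94 CPM in hHVS libraries and 55.8 ± 4.27 CPM in PCL libraries (adjusted p = 0.181, edgeR), and Irf5, a factor of inflammatory macrophages, was at 148 ± 9.10 and 195 ± 33.0 CPM (adjusted p = 0.225, edgeR).

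Other transcription factors of myeloid cells numbered 26, all tested, of which 0 passed in edgeR. Among the 26, 6 had an unadjusted p under 0.05 (13.1% of all genes), 4 passed in DESeq2 (3.58% of its genes) and 0 in limma-voom (median log2 fold change -0.01). Zeb2, the most abundant, was at 557 ± 25.4 CPM in hHVS libraries and 474 ± 70.0 CPM in PCL libraries (adjusted p = 0.435, edgeR). Klf4, a monocyte factor named after its values were seen, was at 2.65 ± 0.765 CPM in hHVS libraries and 5.74 ± 0.992 CPM in PCL libraries (adjusted p = 0.119, edgeR). Of the 12 factors of other blood lineages, 6 were too low to be tested (Gfi1, Gfi1b, Gata1, Pax5, Tcf7 and Bcl11b). Among the other 6, 0 passed in edgeR, DESeq2 or limma-voom, although 1 had an unadjusted edgeR p under 0.05 (13.1% of all genes). Only Tal1 among the 12 exceeded 10 CPM, at 15.3 ± 3.39 CPM in hHVS libraries and 15.0 ± 3.97 CPM in PCL libraries.

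Signals that act on the factors come next. Of 9 genes tested among receptors and ligands, 1 rose and 0 fell in edgeR, against 0.562% and 0.299% of all genes. Among the 9, 3 had an unadjusted p under 0.05 (13.1% of all genes), 2 passed in DESeq2 (3.58% of its genes) and 1 in limma-voom (median log2 fold change -0.07). The gene that rose was Il4ra, the receptor chain for interleukin-4, the cytokine whose macrophage response needs IRF4, at 105, 104 and 102 CPM on hHVS and 75.02, 74.5 and 81.1 CPM in PCL libraries (fitted log2 fold change 0.43 ± 0.07, adjusted p = 0.0475, edgeR). That call was lost in 5 of the 6 omissions of 1 library (adjusted p up to 0.193, edgeR). With all 6 libraries it was also lost with library totals (0.0943), no filter (0.0767) and the replicate block (0.189). The same held for limma on log2(FPKM + 1) (0.0969, and 0.147 with no filter) and on log2(FPKM + 0.1) (0.0909). Csf2ra, a receptor chain for the growth factor GM-CSF, was the other gene that DESeq2 called, at 413 ± 8.87 CPM in hHVS libraries and 522 ± 37.9 CPM in PCL libraries without overlap (log2 fold change -0.34, adjusted p = 0.106 in edgeR and 0.0162 in DESeq2). Csf1r, the receptor for the macrophage growth factor, was at 2064 ± 39.6 CPM in hHVS libraries and 2165 ± 103 CPM in PCL libraries (95% interval of the log2 fold change -0.22 to 0.08, adjusted p = 0.699, edgeR).

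Textbook targets of each factor were counted by list. Of 13 gene records tested for PU.1, C/EBP and RUNX1, 0 passed in edgeR and 4 had an unadjusted p under 0.05 (13.1% of all genes). DESeq2, which called 3.58% of its genes, called 3 of the 13, and limma-voom called 0 (median log2 fold change 0.01). Lyz2, the macrophage lysozyme gene, was at 13298 ± 684 CPM in hHVS libraries and 9682 ± 1134 CPM in PCL libraries (adjusted p = 0.105, edgeR). Of the 3 that DESeq2 called, Lyz2 was higher on hHVS and the other two, Cd14 and Csf2ra, named after their values were seen, were lower. Cd14, the co-receptor for bacterial lipopolysaccharide, had 78.4, 94.1 and 87.7 CPM in hHVS replicates 1 to 3 and 136, 236 and 152 CPM in PCL replicates 1 to 3. Its groups did not overlap (log2 fold change -1.01 ± 0.20, adjusted p = 0.0847 in edgeR and 6.1e-06 in DESeq2). Of 6 tested for IRF8, 0 passed in edgeR, DESeq2 or limma-voom, and 2 had positive and 4 negative log2 fold changes. An unadjusted edgeR p under 0.05 was reached by 1 (13.1% of all genes), Cybb, named after its values were seen. It was at 1139 ± 54.2 CPM in hHVS libraries and 988 ± 9.25 CPM in PCL libraries (adjusted p = 0.237, edgeR). The most abundant, the protease gene Ctss, was at 4445 ± 369 and 5095 ± 671 CPM on hHVS and PCL (adjusted p = 0.499, edgeR). Of 6 genes of the interleukin-4 response, Ccl17 and Retnla were at 0 in all libraries and Ccl22 was too low to be tested. The other 3 held 0 calls in edgeR and limma-voom, 1 in DESeq2 and 1 at an unadjusted p under 0.05 in edgeR. Both were Mrc1, the mannose receptor gene, at 607 ± 55.1 CPM in hHVS libraries and 353 ± 118 CPM in PCL libraries (log2 fold change 0.78 ± 0.24, adjusted p = 0.222, edgeR). Arg1 (0.182 and 0.845 CPM on hHVS and PCL) and Chil3 (0.771 and 0.816 CPM) had negative log2 fold changes with overlapping groups. In PCL replicate 3 Arg1 was at 2.20 CPM, its highest value. The median log2 fold change of the 3 was -0.08.

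The list of MiT targets held 1 gene that rose and 0 that fell among 7 tested in edgeR. An unadjusted p under 0.05 was reached by 4 of the 7, against 13.1% of all genes. DESeq2, which called 3.58% of its genes, called 2 (Gpnmb and Acp5), and limma-voom called 1. Gpnmb, a membrane glycoprotein gene of macrophages and osteoclasts, was at 25144, 21974 and 23829 CPM on hHVS and 17082, 17534 and 17724 CPM in PCL libraries (fitted log2 fold change 0.44 ± 0.07, adjusted p = 0.0495, edgeR), with no overlap between the scaffolds. The call was lost whichever library was left out (adjusted p 0.0737 to 0.241, edgeR). With all 6 libraries it was lost under DESeq2's size factors in edgeR (0.0503), library totals (0.0648), values divided by 4 (0.0687), no filter (0.113), the replicate block (0.145) and limma on log2(FPKM + 1) (0.258). Acp5, the osteoclast acid phosphatase gene, was at 28.9 ± 4.69 CPM in hHVS libraries and 19.7 ± 3.17 CPM in PCL libraries (adjusted p = 0.199 in edgeR and 0.0335 in DESeq2). Of the 7 tested, 6 had a positive and 1 a negative log2 fold change (median 0.20), where 52.2% of all genes were negative. The negative one was Trem2, a macrophage lipid receptor gene named, like Acp5, after its values were seen, at 829 ± 35.2 CPM in hHVS libraries and 1012 ± 52.2 CPM in PCL libraries (adjusted p = 0.146, edgeR). For MAF, 0 of 5 tested targets passed in edgeR or limma-voom (median log2 fold change 0.17). Among the 5, 1 passed in DESeq2 (3.58% of its genes) and 1 had an unadjusted p under 0.05 in edgeR (13.1% of all genes). All 5 log2 fold changes were positive, where 52.2% of all genes were negative. The 5 include the related complement genes C1qa, C1qb and C1qc, at 0.17, 0.03 and 0.09, each with overlapping groups. C1qb, the most abundant, was at 1286 ± 90.5 and 1259 ± 131 CPM on hHVS and PCL. The gene that DESeq2 called was Cd163, the haemoglobin scavenger receptor gene, named after its values were seen, with 1.36, 0.922 and 1.19 CPM in hHVS replicates 1 to 3 and 0.183, 0.4 and 0.103 CPM in PCL replicates 1 to 3. The groups did not overlap (log2 fold change 2.34, adjusted p = 0.115 in edgeR and 0.00269 in DESeq2), and PCL replicates 1 and 3 lay near the level that 3 fragments make.

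**Figure D5:**
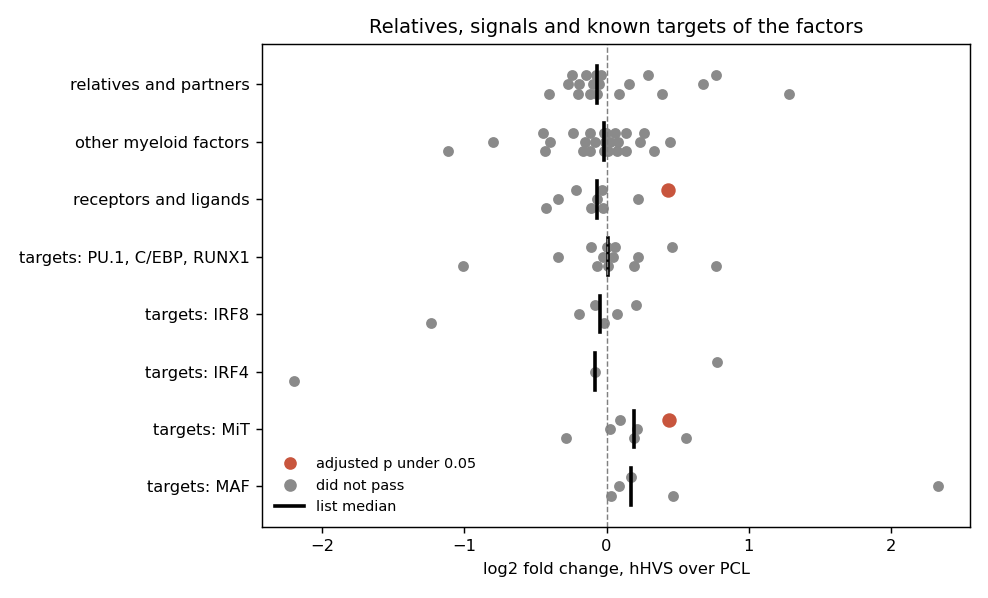
Log2 fold change of hHVS over PCL for each gene tested in the lists of relatives, other myeloid factors, signals and known targets, with the list median as a black bar and genes with an adjusted p under 0.05 in red. The red points are Il4ra and Gpnmb, both positive, and the list medians lie between -0.08 and 0.20.

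Of 4 tested progenitor markers 1 fell and 0 rose, Sox4, and of 5 tested osteoclast markers 1 fell and 0 rose, Dcstamp. Over all genes tested 0.299% fell and 0.562% rose (edgeR). In edgeR 0 of the tested markers of macrophages (9 records), neutrophils (7), dendritic cells (4), B and plasma cells (3) and T and natural killer cells (2) passed. At an unadjusted p under 0.05 edgeR had 4 of the macrophage and 1 of the dendritic cell markers, against 13.1% of all genes. DESeq2, which called 3.58% of its genes, called 3 macrophage and 1 dendritic cell markers, and limma-voom called 0. Sox4, a factor of progenitors and stromal cells, was at 6.34 ± 0.50 CPM in hHVS libraries and 13.9 ± 3.32 CPM in PCL libraries (adjusted p = 0.0495, edgeR), and Dcstamp, needed for fusion of osteoclasts and macrophages, was at 7.57 ± 1.23 CPM in hHVS libraries and 41.3 ± 17.7 CPM in PCL libraries (adjusted p = 0.0165, edgeR). Leaving out 1 library ended the call of Sox4 in 5 and that of Dcstamp in 3 of 6 cases. With all 6 libraries the Sox4 call also ended under limma-voom (adjusted p = 0.0678), DESeq2's size factors in edgeR (0.05001), no filter (0.0872), the replicate block (0.162) and limma on log2(FPKM + 1) (0.0861). The Dcstamp call ended only with limma on log2(FPKM + 1) and no filter (0.116) among the fits to all 6 libraries. Nfatc1, the osteoclast factor downstream of which Dcstamp is known to lie, was at 90.2 CPM in hHVS libraries and 85.7 CPM in PCL libraries (adjusted p = 0.838, edgeR). The 7 tested stromal markers all had negative log2 fold changes (median -1.11), where 52.2% of all genes were negative. The most abundant was the collagen gene Col1a2 at 16.5 CPM in hHVS libraries and 32.1 CPM in PCL libraries. Of the 7, 0 passed in edgeR, 1 in DESeq2 and 0 in limma-voom. An unadjusted edgeR p under 0.05 was reached by 2 of them, against 13.1% of all genes. Runx1, Cebpb, Maf and Mitf are also transcribed in stromal cells, and the part of those cells in their values was not tested.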

How the data were processed

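Messenger RNA was measured in 6 libraries, and groups and replicate numbers were taken from the sample titles. The authors deposited estimated counts per gene and FPKM per gene; the submitters' processing notes name STAR, featureCounts, FastQC and MultiQC and the build mm10, but not which of them made each table. The count table had been taken for raw counts when the tests were chosen. The value 4 fills 6544 of its cells, against 2701 with 3 and 1483 with 5, and 8 fills 3210, against 1302 with 7 and 857 with 9. The values 1 (6904 cells) and 2 (3737 cells) were also common. From the peaks it was inferred that a fragment is worth about 4 units. The whole numbers of the table were used as deposited.

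Genes were filtered with filterByExpr (minimum count 10), scaled with TMM factors (0.959 to 0.986 in hHVS and 1.005 to 1.05 in PCL libraries) and compared by quasi-likelihood testing (edgeR 4.0.16, R 4.3.3) on group alone, with Benjamini-Hochberg adjustment over 16364 genes. The median log2 fold change of all genes was -0.0135 with these factors and -0.0944 with library totals. FPKM values were used as deposited, without TMM factors, so a small difference can change sign between CPM and FPKM. DESeq2 1.42.0 and limma 3.58.1 were alternatives. The fit was tried on simulated counts in which genes more abundant than Irf4 were changed 2-fold or 4-fold, of which 86% and 97% were recovered. That simulation does not cover levels as low as that of Irf4, differences under 2-fold, or units that are not counts. Standard errors were derived from the F statistic. Ratios used an exact permutation test over libraries. Intervals and floors cover the spread between libraries or counting error only, since amplified reads are not independent molecules.

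The 9 factors and the gene lists were chosen with earlier results of these data known. All 9 factors are named; from each list, genes past the threshold with at least 1 CPM (up to 3 by size of change), or the most abundant member; some genes the rule names are not reported here. Coordinates are from GENCODE M21 (GRCm38, the assembly of mm10), matched by Ensembl identifier for 9 of 9 factors; promoters are from RefSeq, with entries for 7 of the 9.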

Additional observations from a re-analysis of the deposited data

How the results depend on the processing

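In all 17 alternatives 0 of the 9 factors passed. The number of genes called, 141 with all libraries, was 76 without a filter on low counts, 658 with DESeq2, 36 with the replicate block, 84 with limma on log2(FPKM + 0.1), 19 with limma on log2(FPKM + 1) and no filter, 66 without PCL replicate 3 and hHVS replicate 2 together, and 32 to 154 with 1 library left out. The cause of these shifts was not tested. Library totals in place of TMM factors split the calls 71 higher and 74 lower on hHVS, against 92 and 49.

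Spi1, Runx1, Mitf and Irf4 kept a negative and Maf and Tfec a positive log2 fold change in all 17. Irf4 ranged from -2.14 to -0.26 (adjusted p 0.0565 to 0.54), the smallest being on log2(FPKM + 1), where the pseudocount exceeds its level. Irf8 turned negative with library totals (-0.0705), with limma on log2(FPKM + 1) with or without the filter (-0.0532), with limma on log2(FPKM + 0.1) (-0.0549) and without PCL replicate 3 and hHVS replicate 2 together (-0.10). With 1 library left out it ranged from -0.0626 to 0.14, Cebpa from -0.28 to 0.12 and Cebpb from -0.15 to 0.0224. Without PCL replicate 3 and hHVS replicate 2 together Cebpa was at 0.00819. Tal1 turned to -0.0585 with library totals, to -0.0257 with limma on log2(FPKM + 1) with or without the filter and to -0.0282 on log2(FPKM + 0.1). C1qb turned to -0.0485 with library totals, to -0.0388 in each limma fit on FPKM and to -0.0447 without the same 2 libraries. With 1 library left out Tal1 ranged from -0.17 to 0.19, C1qb from -0.0312 to 0.12 and Col1a2 from -1.38 to 0.21. The hHVS minus PCL difference in log2 ratio ranged for Cebpa to Spi1 from -0.10 to 0.25, for Cebpa to Cebpb from -0.28 to 0.14, for Irf8 to Irf4 from 1.29 to 2.01 and for Tfec to Mitf from 0.37 to 1.05.

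The replicate block called 0 of the 9 factors. Deviations of same-numbered libraries correlated at 0.117, -0.01 and -0.06, so the numbers were not taken as pairs. An exact sign-flip test of the ratio of Irf8 to Irf4 by number gave p = 0.25, the smallest that 3 pairs allow. Depth limits Irf4 most: its lowest library held 29 units, at about 4 units to a fragment.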
